A study of Mus musculus with 6 samples.

Results

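The 10 genes described here make melanin or build the melanosome, the organelle that holds it: Dct, Tyr, Tyrp1, Pmel, Mlana, Slc45a2, Oca2, Mitf, Gpnmb and Slc24a5. They were taken from a named list, and all 10 were found among the 52636 genes of the count table. Single-cell RNA sequencing compared retinas of Dram2 wt/wt mice (wild-type controls) with retinas of Dram2 ko/ko mice, which carry a constitutive CRISPR/Cas9 deletion of exon 4 of Dram2, a gene linked to retinal dystrophy. Each genotype had 3 retinas from male C57BL/6J mice aged 12 months, and replicates 1 and 2 of each genotype were labelled batch 2 and replicate 3 batch 1. The question of the comparison was whether loss of Dram2 alters gene expression in the ageing retina. The counts came from the 3′ ends of transcripts, so they cannot show the loss of an upstream exon, and the genotype rests on the labels.

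Melanin in the eye is made by the retinal pigment epithelium (RPE), a single layer of cells behind the photoreceptors, and by melanocytes of the choroid behind it. Tyrosinase (Tyr) starts the pathway, and dopachrome tautomerase (Dct) and Tyrp1 act after it. Pmel forms the fibrils on which pigment is laid down, Mlana is a melanosome membrane protein that acts with Pmel, and Oca2, Slc45a2 and Slc24a5 are transporters that set the ion balance of the organelle. Mitf is the transcription factor that drives the program in melanocytes and in the developing RPE, and Gpnmb is a membrane glycoprotein related to Pmel. In RPE most melanosomes are formed before adulthood, whereas melanocytes share the same enzymes but also carry Sox10 and Kit.

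The deposited annotation placed 45746 of 46375 cells in 5 types, of which RPE cells (116) and mesenchymal cells (246) were the rarest, followed by glia (942), interneurons (2083) and photoreceptors (42359). RPE is not part of the dissected neural retina, and the RPE cells numbered 25, 25 and 23 in wt/wt retinas 1, 2 and 3 and 17, 16 and 10 in ko/ko retinas 1, 2 and 3. Unique molecular identifiers (UMIs), each counting 1 captured RNA molecule, totalled between 17073 and 35968 in the RPE cells of a retina. The cells called RPE carried RPE markers: the transthyretin gene Ttr was read in all 116, Rgr in 115, Rdh5 in 110 and Rpe65 in 94, and of 10 RPE markers Best1 alone was at 0. Rod transcripts were also present in them, the summed level of 8 rod genes being between 7.75% and 18.8% of that in the photoreceptors of the same retina. Levels are given as CPM, the UMIs of a gene in the sum of the cells of a type and retina scaled to 1000000 UMIs in that sum, and are compared between cell types and genotypes, not between genes. Intervals cover counting error only.

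The 3 enzymes were read mostly in RPE cells, and Dct had more UMIs there than any of the other 9 genes. Dct had 249 UMIs in RPE cells, which was 92.9% of its UMIs in typed cells, against 8 in interneurons, 9 in photoreceptors, 2 in glia and 0 in mesenchymal cells. Its mean RPE level was 1755 ± 1145 CPM (SD, n = 6), and the lowest RPE value, 445 CPM, lay above the highest value of any other type, 8.14 CPM in the interneurons of a retina. Tyr had 13 UMIs in RPE cells and 3 elsewhere among typed cells, and Tyrp1 had 15 and 1. Their RPE means were 79.9 ± 61.0 CPM and 103 ± 72.7 CPM (SD, n = 6), but with 0 UMIs in the RPE cells of wt/wt retina 1 their ranges over retinas met those of the other types.

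The promoters of these 3 enzymes share a short sequence, and they are shown because the genes were read in the same cell type. RefSeq promoters of GRCm38.p6 were matched for 7 of the 10 genes, with 9 promoters in all, and none was matched for Pmel, Mlana or Slc45a2. The 250 bases before the start site are written 5′ to 3′ on the strand of the gene. The longest stretch in them common to Dct, Tyr and Tyrp1 is the 10 bases in capitals. These are part of the motif known as the M box, to which Mitf binds. The base before them is a in Tyr and Tyrp1 but g in Dct. The stretch begins 152 bases before the start site in Dct, 23 in Tyr and 48 in Tyrp1.
Dct promoter, chr14:118052247-118052496, minus strand: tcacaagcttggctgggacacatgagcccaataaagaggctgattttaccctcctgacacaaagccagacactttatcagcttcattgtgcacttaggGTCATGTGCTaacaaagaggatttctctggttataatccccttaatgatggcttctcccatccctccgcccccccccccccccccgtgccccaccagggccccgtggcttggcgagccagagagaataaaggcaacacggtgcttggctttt
Tyr promoter, chr7:87493513-87493762, minus strand: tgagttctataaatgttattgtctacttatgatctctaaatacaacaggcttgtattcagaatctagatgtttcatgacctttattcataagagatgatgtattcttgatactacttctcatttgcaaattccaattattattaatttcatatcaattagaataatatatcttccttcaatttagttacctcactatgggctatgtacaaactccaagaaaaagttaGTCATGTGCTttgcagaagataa
Tyrp1 promoter, chr4:80833963-80834212, plus strand: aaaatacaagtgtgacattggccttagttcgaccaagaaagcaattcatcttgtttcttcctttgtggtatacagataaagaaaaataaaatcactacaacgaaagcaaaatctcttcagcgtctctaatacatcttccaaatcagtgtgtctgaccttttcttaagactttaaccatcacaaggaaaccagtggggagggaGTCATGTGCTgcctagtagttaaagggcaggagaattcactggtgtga
The stretch stood in 51 of 32851 mouse promoter windows (0.155%), read on either strand. Its core CATGTG is common, being found on either strand in 12.3% of the windows, and in the promoters of Dct, Tyr, Tyrp1, Oca2 and Slc24a5. None of the matched promoters held CACGTG, the other core, found in 6.02% of windows. GGATTA, the core bound by Otx2 and Crx, was in the promoter of Dct and 1 of 3 promoters of Mitf, against 6.25% of windows. These matches describe letters in a window and not binding.

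Dct lies on chromosome 14 (118012790 to 118052244, minus strand, GENCODE annotation of GRCm38), Tyr on chromosome 7 (87424771 to 87493512, minus strand) and Tyrp1 on chromosome 4 (80834123 to 80851719, plus strand). No annotated gene overlaps Tyr or Tyrp1. Dct overlaps the antisense gene 4930435M08Rik, on the plus strand, over 1891 bases (118044974 to 118046864), and whether their exons overlap was not examined.

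Over the genotypes together the structural proteins were also highest in RPE cells, but a larger share of Pmel was read elsewhere. Pmel had 22 UMIs in RPE cells, 3 in glia, 2 in interneurons and 5 in photoreceptors. Mlana had 7 UMIs in RPE cells and 2 in photoreceptors. In wt/wt retinas alone Pmel had 0 UMIs in RPE cells and 3 in glia, and Mlana had 1 in RPE cells. Their RPE means over 6 retinas were 168 ± 221 CPM and 53.1 ± 52.2 CPM, and the wide spread of Pmel followed the genotype, as described further on.

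The transporters divided. Slc45a2 was read with 3 UMIs in all typed cells, all of them in RPE cells. Oca2 had 7 UMIs in RPE cells and 8 in interneurons, but the RPE sums were far smaller, so that its mean level was 42.8 ± 50.2 CPM in RPE and 1.55 ± 1.93 CPM in interneurons (SD, n = 6), with overlapping ranges. Slc24a5 followed another pattern: it had 15 UMIs in RPE cells against 4887 in photoreceptors and 930 in interneurons.

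Slc24a5 was highest in interneurons (241 ± 40.3 CPM) and photoreceptors (236 ± 51.1 CPM), lower in glia (133 ± 53.6 CPM) and RPE cells (105 ± 81.1 CPM), and lowest in mesenchymal cells (51.9 ± 23.0 CPM; SD, n = 6 each). The ranges over retinas of neighbours in this order overlapped. It was the only member whose highest mean over the 6 retinas was outside RPE. Slc24a5, on the plus strand of chromosome 2 (125068124 to 125088677), meets Myef2, on the minus strand, tail to tail: the genes overlap over 4050 bases (125084628 to 125088677), with 921 bases exonic in both. Myef2, a repressor of myelin gene transcription, had a similar profile outside RPE, with 245 ± 72.5 CPM in interneurons, 188 ± 51.1 in photoreceptors, 117 ± 43.9 in glia and 37.6 ± 25.8 in mesenchymal cells. In RPE cells Myef2 had 3, 2 and 1 UMIs in wt/wt retinas 1, 2 and 3 and 0 in each ko/ko retina (35.9 ± 47.5 CPM), counts too small to set its profile there against that of Slc24a5. In photoreceptors Slc24a5 was at 284, 276 and 156 CPM in wt/wt retinas 1, 2 and 3 and Myef2 at 221, 228 and 109 CPM, so both were lower in the batch 1 retina. The ko/ko retinas showed the same order, with 256, 254 and 191 CPM of Slc24a5 and 211, 222 and 138 CPM of Myef2. The sources used here do not state whether counting used the strand, and reads of the shared exonic bases cannot then be told apart. The RPE level of Slc24a5 was between 0% and 87.5% of the photoreceptor level in the same retina, and that of Myef2 between 0% and 50.9%. Myef2 had the higher percentage in wt/wt retinas 1 and 3, Slc24a5 in wt/wt retina 2 and ko/ko retinas 2 and 3, and both were at 0 in ko/ko retina 1. This order rests on at most 5 RPE UMIs of either gene in a retina, too few to rank them.

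**Figure D1:**
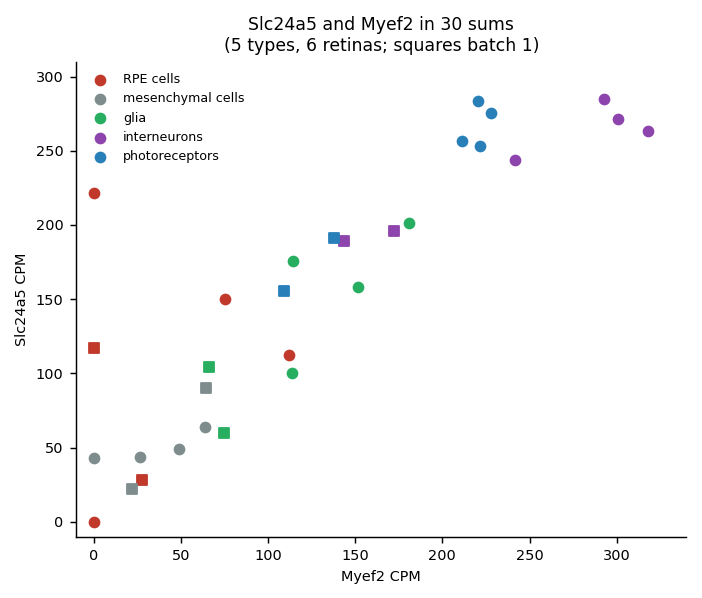
Level of Slc24a5 (vertical axis, CPM) against Myef2 (horizontal axis, CPM) in the 30 sums of 5 cell types and 6 retinas; squares are batch 1 and circles batch 2. Interneuron and photoreceptor sums of batch 2 reach the highest values of both genes, the batch 1 sums of both types lie near or among the glia sums, and the mesenchymal sums are at the bottom left; 3 RPE sums had no Myef2 UMI.

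Mitf, the regulator, was not confined to RPE. It had 6 UMIs in RPE cells, 5 in mesenchymal cells, 4 in glia, 29 in interneurons and 164 in photoreceptors. The level was 33.8 ± 39.2 CPM in RPE cells, where 3 of 6 retinas had no UMI, and 7.81 ± 1.33 CPM in photoreceptors (SD, n = 6), and the ranges overlapped. Gpnmb was the other gene, with Dct, whose RPE values stood apart from every other type: 36 UMIs gave 187, 263 and 195 CPM in wt/wt retinas 1, 2 and 3 and 403, 222 and 176 CPM in ko/ko retinas 1, 2 and 3, against at most 26.1 CPM in interneurons, where 48 UMIs lay in 41 of 2083 cells. Gpnmb is also known as a gene of activated phagocytes, yet it had 0 UMIs in the 246 mesenchymal cells, of which 92 were led by microglial markers. Zero in those 92 cells allows a level of up to 17.1 CPM.

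By mean level over all 6 retinas 9 of the 10 genes were highest in RPE cells, and for 2 of them, Dct and Gpnmb, the RPE values of all 6 retinas lay above those of the next type. Within a genotype this order failed for Pmel in wt/wt retinas (0 CPM in RPE cells, 4.24 in glia). It also failed for Mitf in ko/ko retinas (14.8 CPM in RPE cells, 15.7 in mesenchymal cells). As the types were clustered on these counts, this is a description and no test. Of 6215 genes with at least 3 UMIs in RPE cells, which include all 10 members, 24.6% were highest there, and of 635 with at least 30 UMIs, which include Dct and Gpnmb, 54.0% were.

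**Figure D2:**
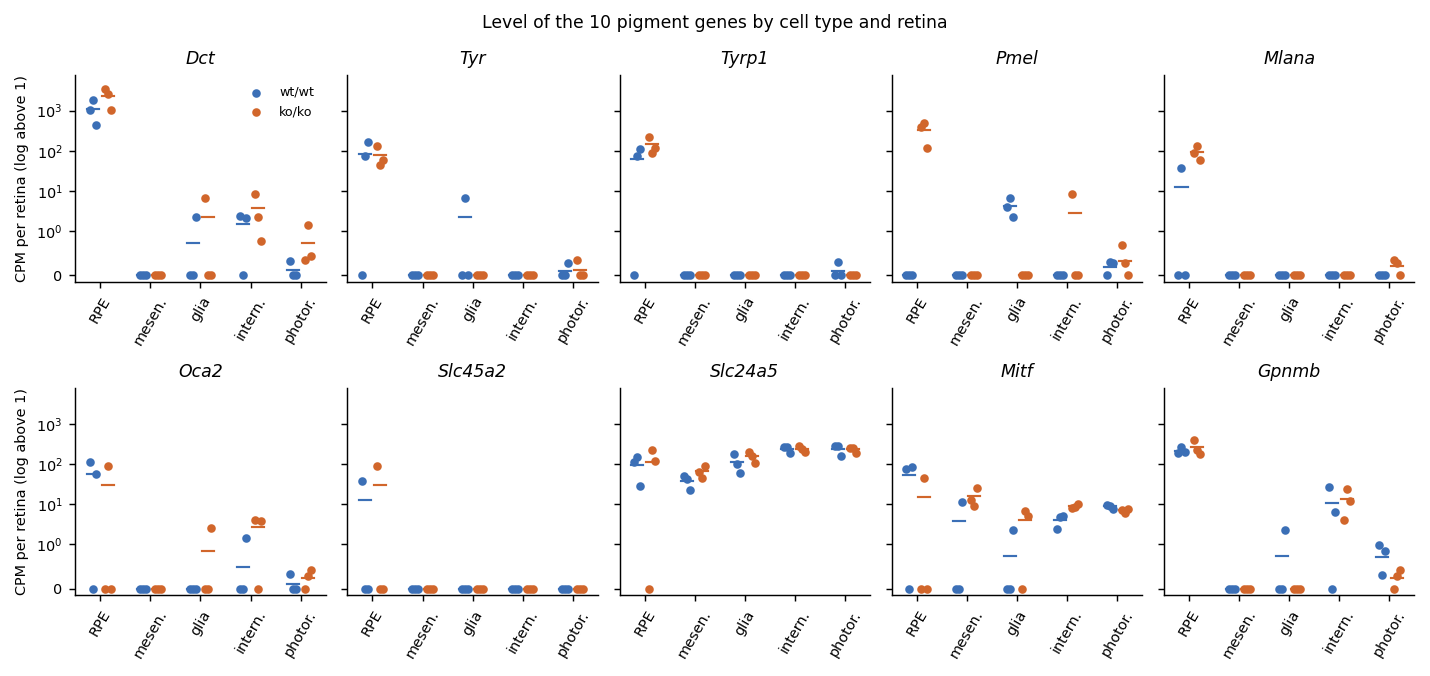
Level of each of the 10 genes (vertical axis, CPM, linear below 1 and logarithmic above) in the 5 cell types; each point is a retina, blue wt/wt and orange ko/ko, and bars are genotype means. Dct and Gpnmb lie above all other types in the RPE cells of 6 of 6 retinas, Slc24a5 is spread over all types, and Pmel in RPE cells is at 0 in the 3 wt/wt retinas.

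Within single RPE cells the pigment genes were sparse. Of 116 RPE cells, 28 had no UMI of any of the 10 genes, 48 had UMIs of 1 gene, 17 of 2, 13 of 3, 7 of 4, 2 of 5 and 1 of 6. Dct was read in 71 of 116 RPE cells (61.2%, exact 95% interval 51.7% to 70.1%) at a median of 1122 UMIs a cell, against 9 of 42359 photoreceptors (0.0212%) at a median of 428 UMIs. That interval pools the cells of all retinas and leaves out the spread between them, over which the RPE share ran from 30.4% to 81.25%. With each cell thinned to 500 UMIs, which left 54 wt/wt and 38 ko/ko RPE cells of that depth, the share over retinas was 42.4% ± 15.8 (SD, n = 6) in RPE cells and at most 0.0824% in the photoreceptors of any retina. Gpnmb was read in 26 of 116 RPE cells (22.4%), Slc24a5 in 15 (12.9%), Tyr in 13 (11.2%), Tyrp1 in 11 (9.48%) and Pmel in 9 (7.76%). Mlana and Oca2 were read in 6 cells each, Mitf in 5 and Slc45a2 in 3. For Slc24a5 the thinned share was lower in RPE cells, 4.24% ± 3.59, than in photoreceptors, 10.4% ± 2.32 (SD, n = 6), with overlapping ranges over retinas.

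Dct was carried unevenly. The 3 RPE cells with the most Dct held 35.7%, 48.0% and 75% of the Dct UMIs in wt/wt retinas 1, 2 and 3, and 67.1%, 63.8% and 83.3% in ko/ko retinas 1, 2 and 3. Cells with at least 5 Dct UMIs numbered 0, 3 and 1 in wt/wt retinas 1, 2 and 3, together 4 of 73, against 5, 5 and 2 with ko/ko, together 12 of 43. A cell of ko/ko retina 1 reached 26 Dct UMIs, while the highest wt/wt cell had 12. The share of the top 3 cells rises where a retina has fewer cells, as the ko/ko retinas did, and these counts were not thinned, with a median depth of 1053 UMIs in wt/wt and 1329 in ko/ko RPE cells.

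Whether the genotypes differed was tested on the sums per retina with edgeR's quasi-likelihood test over all genes that passed the filter on low counts, with Benjamini-Hochberg adjustment. In RPE cells 308 genes were tested and 0% were called at an adjusted p below 0.05, with 11 at an unadjusted p below 0.05; limma-voom called 0 and DESeq2 called 1, which was no member. Dct was the only member to pass the filter. It had 28, 50 and 16 UMIs in wt/wt retinas 1, 2 and 3 and 79, 58 and 18 in ko/ko retinas 1, 2 and 3, that is 1048, 1880 and 445 CPM against 3533, 2573 and 1054 CPM. The 2 batch 2 ko/ko retinas were above every wt/wt retina, and ko/ko retina 3 lay within the wt/wt range. The log2 difference, ko/ko minus wt/wt, was 1.06 (SE 0.53, edgeR adjusted p = 0.910), which did not pass the test.

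The difference in Dct had the same direction in both batches. It was 1590 CPM between the means of batch 2, with 2 retinas a genotype, and 609 CPM in batch 1, with 1 retina a genotype. How many other genes had the same direction in both batches was not counted. With batch as a covariate, the estimate was 1.04 in edgeR with an adjusted p of 0.0486 (0.974% of 308 genes called) and 1.06 in limma-voom with an adjusted p of 0.00160 (1.62% called), so that Dct passed the threshold in those fits, but not in the fit with batch that kept all 11581 genes (0.99, edgeR adjusted p = 0.816). Over all alternative settings the adjusted p of Dct ran from 0.00160 to 1.00. Without wt/wt retina 3 the estimate fell to 0.68, without ko/ko retina 1 to 0.69, and without wt/wt retina 2 it was 1.62. The share of RPE cells with a Dct UMI, thinned to 500 UMIs, was 46.1%, 44.7% and 19.0% in wt/wt retinas 1, 2 and 3, against 51.1%, 63.6% and 29.6% in ko/ko retinas 1, 2 and 3. Their means, 36.6% ± 15.2 and 48.1% ± 17.2 (SD, n = 3), differed by 11.5 percentage points (two-sided exact permutation test, p = 0.40, where the smallest possible is 0.10). The groups overlapped over all retinas. In batch 2, with 2 retinas a genotype, they did not, and the difference was 11.9 points. In batch 1, with 1 retina a genotype, single values cannot overlap, and the difference was 10.5 points. The permutation took no account of batch. Without thinning the means were 54.1% and 69.2% (exact p = 0.50).

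Pmel was read in RPE cells of ko/ko retinas and in none of the 73 RPE cells of wt/wt retinas. It had 0, 0 and 0 UMIs in wt/wt retinas 1, 2 and 3, and 9, 11 and 2 in ko/ko retinas 1, 2 and 3, where it reached 403, 488 and 117 CPM. The groups did not overlap, and p = 0.10 in the two-sided exact permutation test over 6 retinas is the smallest this design allows. Zero over all wt/wt RPE cells allows up to 33.6 CPM, the level of 3 counts over the group, and the pooled ko/ko level of 355 CPM was 10.6 times that limit. This ratio is no lower bound, as it leaves out the error of the 22 ko/ko UMIs and the spread between retinas. In batch 1, ko/ko retina 3 was at 117 CPM, on 2 UMIs, against a limit of 83.4 CPM in wt/wt retina 3. Outside RPE, Pmel was read in both genotypes, with 5 UMIs in wt/wt and 5 in ko/ko retinas. Among 2149 genes with at least 10 UMIs in RPE cells, every ko/ko value lay above every wt/wt value for 5.03% (108 genes); 6 members had that many UMIs and Pmel was the only one of them. Pmel was also the only one of the 2149 genes at 0 in all 3 wt/wt retinas and present in all 3 ko/ko retinas, a description chosen after its values were seen. Pmel is among the 2149 genes only through its ko/ko UMIs, so neither count is a test of it.

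Pmel was too sparse for the main test and has no value in it. Without the filter, edgeR tested 11581 genes in RPE cells and called 3 (0.0259%), Pmel among them with an adjusted p of 0.00162. In the same unfiltered fit with batch as a covariate, a setting added after the data were seen, edgeR called no gene, with 232 at an unadjusted p below 0.05 that included Pmel, Dct and Mlana, and Pmel and Dct each had an adjusted p of 0.816. The fitted fold of a gene at 0 in a whole group depends on the prior count and is not given. Pmel, on chromosome 10 (128704195 to 128720238, plus strand), overlaps exons of Cdk2 by 34 bases and of Dgka by 105 bases, both on the minus strand. The kinase genes Cdk2 and Dgka had 1 and 0 UMIs in all RPE cells.

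The Pmel UMIs lay in 9 cells: 5 of 17 RPE cells in ko/ko retina 1, 3 of 16 in retina 2 and 1 of 10 in retina 3, with up to 6 UMIs a cell. These 9 cells also held most of the Dct of their genotype. They had 102 of the 155 ko/ko Dct UMIs, a median of 8 Dct UMIs a cell (range 2 to 26), and 8 of them had at least 5. Their pooled Dct level was 6958 CPM, against 1120 CPM in the 34 ko/ko RPE cells without Pmel and 1053 CPM in the 73 wt/wt RPE cells. They also held 5 of the 6 ko/ko Mlana UMIs, in 4 cells, and 6 of the 9 ko/ko Tyrp1 UMIs, in 4 cells, but 1 of the 5 ko/ko Tyr UMIs. RPE markers were present in them, with Ttr, Rgr and Rdh5 in 9 of 9 and Rpe65 in 8 of 9. Their median depth was 1738 UMIs, against 1161 in the other ko/ko RPE cells. The 9 cells were chosen for their Pmel, so these values are descriptions, and cells of a retina are not replicates.

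**Figure D3:**
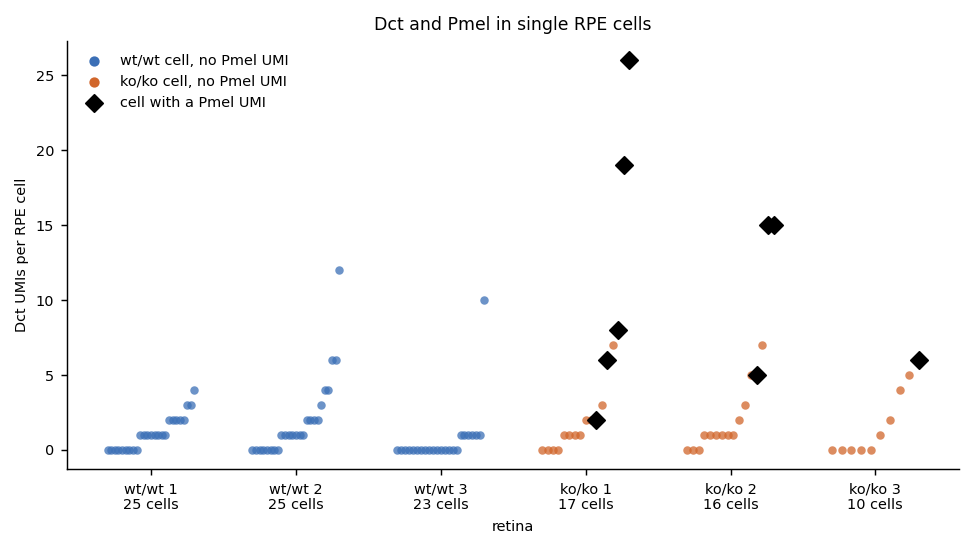
Dct UMIs (vertical axis) in each of the 116 RPE cells, by retina (horizontal axis) and sorted within a retina; black diamonds are cells with a Pmel UMI. All 9 such cells are in ko/ko retinas, and 8 of them have at least 5 Dct UMIs, a count reached by 4 of 73 wt/wt cells.

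The other members were read with few UMIs in RPE cells. Mlana had 0, 1 and 0 UMIs in wt/wt retinas 1, 2 and 3 and 2, 3 and 1 in ko/ko retinas 1, 2 and 3. The CPM values did not overlap (exact permutation p = 0.10), on 7 UMIs in all. The UMIs did: wt/wt retina 2 and ko/ko retina 3 had 1 each, in RPE sums of 26601 and 17073 UMIs, giving 37.6 and 58.6 CPM. With fewer than 10 UMIs, Mlana was not among the genes whose share without overlap was counted. Tyrp1 had 0, 2 and 4 UMIs against 5, 2 and 2 (exact p = 0.20), and Tyr 0, 2 and 6 against 3, 1 and 1 (exact p = 1.00). Gpnmb averaged 215 ± 41.9 CPM in wt/wt and 267 ± 120 CPM in ko/ko retinas (exact permutation p = 0.70, n = 3), and the groups overlapped. Slc24a5 had 3, 4 and 1 UMIs against 0, 5 and 2. Oca2 had 5 UMIs in wt/wt and 2 in ko/ko RPE cells, Mitf 5 and 1, and Slc45a2 1 and 2. In the unfiltered edgeR fit none of Oca2, Mitf and Slc45a2 was at an unadjusted p below 0.05.

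Other values of the RPE sums did not overlap between genotypes either. Among the 2149 genes with at least 10 UMIs, every ko/ko value lay below every wt/wt value for 5.30%, beside the 5.03% above. Malat1, a nuclear RNA, was at 19007, 12782 and 52046 CPM in wt/wt retinas 1, 2 and 3 and 9616, 5767 and 7204 CPM in ko/ko retinas 1, 2 and 3, without overlap (exact permutation p = 0.10, the smallest possible). A cell of wt/wt retina 3 held 1665 of the 1872 Malat1 UMIs of that retina, and the lack of overlap rests on that cell. Ttr was higher in every ko/ko retina (82528 to 98310 CPM) than in every wt/wt retina (72481 to 82140 CPM; exact permutation p = 0.10), while Rpe65 and Rgr overlapped. The summed RPE list, of which Ttr is the largest part, did not overlap either (97615 to 111688 CPM in wt/wt and 114274 to 128477 CPM in ko/ko retinas). Nor did the list of 6 Müller glia genes, which shares Rlbp1 with RPE and had Slc1a3 at 0 (11983 to 13872 CPM against 15430 to 15927 CPM). The 8 rod genes, all detected, summed to 8609 to 12344 CPM in wt/wt and 5545 to 10777 CPM in ko/ko RPE cells. The part of these values, or of the different number of RPE cells, in the values of Dct and Pmel was not tested. Of 7 melanocyte markers, 5 were read in RPE cells: Sox10 with 6 UMIs in 6 cells, 4 of them wt/wt, Cdh19 with 3, and Kit, Ednrb and Mc1r with 1 each, while Pax3 and Gjc3 were at 0. Their sum was 27.8 to 150 CPM in wt/wt and 44.4 to 117 CPM in ko/ko RPE cells, with overlap.

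**Figure D4:**
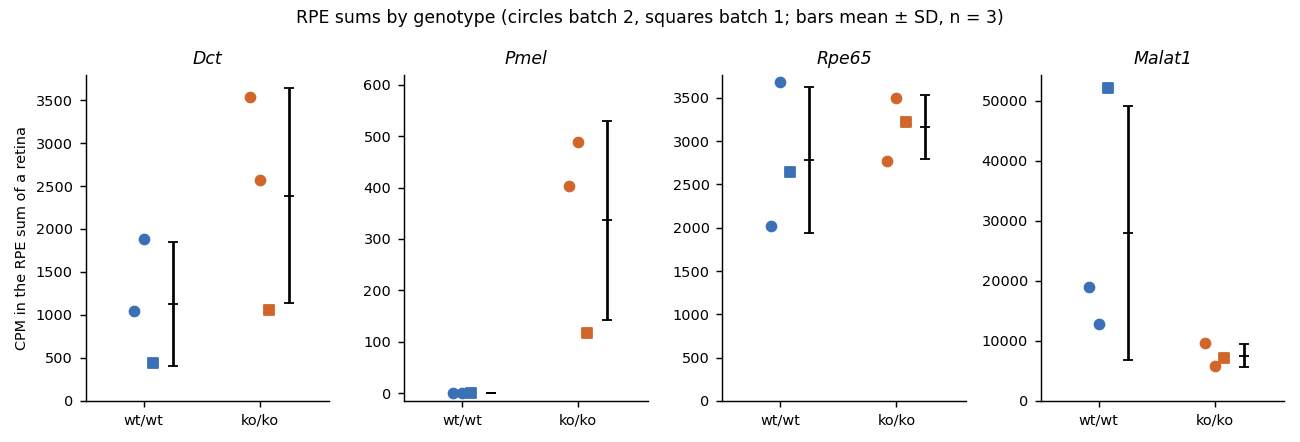
Levels (vertical axes, CPM, each starting at or just below 0) of Dct, Pmel, Rpe65 and Malat1 in the RPE sum of each retina; circles are batch 2, squares batch 1, and black bars mean ± SD of 3 retinas. Pmel is at 0 in 3 wt/wt retinas and between 117 and 488 CPM in the ko/ko retinas, Dct overlaps between genotypes through ko/ko retina 3, and Malat1 is lower in each ko/ko retina. In wt/wt retina 3 a cell held 1665 of the 1872 Malat1 UMIs.

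In the other cell types and in the sum of all cells no member was called by edgeR. In mesenchymal cells none of the 10 passed the filter, so none could be called there. The members tested numbered 1 in glia, 1 in interneurons, 2 in photoreceptors and 4 in all cells. Of the genes tested, 0% were called in mesenchymal cells (1717 genes, 150 at an unadjusted p below 0.05), 0% in glia (4130, 51), 0% in interneurons (7698, 86), 0% in photoreceptors (13053, 109) and 0% in all cells (15330, 101); limma-voom and DESeq2 called 0 in each. Slc24a5 was tested in glia, with a log2 difference of 0.39 (SE 0.43), in interneurons (0.01, SE 0.24) and in photoreceptors (-0.00088, SE 0.26), with adjusted p-values of 1.00 in the same edgeR fits. Its sign in photoreceptors and interneurons changed between settings. Mitf in photoreceptors had a log2 difference of -0.29 (SE 0.27, edgeR adjusted p = 0.998). In interneurons Mitf, with 29 UMIs, did not pass the filter. It was at 2.37, 4.81 and 4.98 CPM in wt/wt retinas 1, 2 and 3 there. In ko/ko retinas 1, 2 and 3 it was at 8.14, 8.63 and 9.91 CPM, without overlap (unfiltered edgeR adjusted p = 0.954). How many other genes did not overlap in interneurons was not counted. In the sum of all cells of a retina Dct had a difference of 0.86 (SE 0.72), at 7.88 ± 4.45 CPM in wt/wt and 14.02 ± 10.5 CPM in ko/ko retinas (SD, n = 3). That estimate was 0.20 without ko/ko retina 1, 0.47 without wt/wt retina 3, 1.38 without wt/wt retina 2 and 0.48 in limma-voom. In such a sum the number of RPE cells and the RNA per cell cannot be told apart. Most of those Dct UMIs, 94 of 100 in wt/wt and 155 of 169 in ko/ko retinas, were from cells called RPE.

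No melanocyte-like cell was found in the mesenchymal class. In 246 mesenchymal cells with 535933 UMIs, 8 of the 10 genes were at 0, which allows a level of up to 5.60 CPM for each, and a share of up to 1.22% of cells with a UMI, which is no limit on cells that express the gene. The exceptions were Slc24a5 (27 UMIs in 25 cells) and Mitf (5 UMIs in 5 cells). With 7 of the 8 enzyme, structural and transporter genes at 0, no mesenchymal cell could have UMIs of 2 of them. Sox10, Kit, Pax3, Gjc3 and Cdh19 were also at 0. Of the remaining melanocyte markers, Ednrb had 4 UMIs and Mc1r 6. Markers of microglia, endothelial cells and pericytes were detected in this class, each list in full, but so were the rod, cone, Müller glia and interneuron lists. Of the fibroblast list 2 of 6 genes were read, and of the Schwann cell list 2 of 4. In the other classes no cell outside RPE had UMIs of 3 or more of the 8 genes, while 14 of the 116 RPE cells did, and none of those 14 met the melanocyte rule of at least 1 melanocyte marker and no UMI of 5 RPE markers; with Rgr, among those 5, in 115 of 116 RPE cells, the rule could hardly be met there.

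A wider list of 48 melanosome genes was examined for context, and 34 had a UMI in RPE cells, of which 13 were highest there by mean level, some on 1 or 2 UMIs. With at least 3 UMIs in RPE cells, 11 of 21 were highest there, beside 24.6% of all genes with that many. Of 23 genes of organelle formation, 16 were read in RPE cells and 7 were highest there; of 7 genes of melanosome transport, 6 were read and 4 highest; of 7 ion and substrate genes, 5 were read and 0 highest; and of 11 regulators, 7 were read and 2 highest. The best measured were Bloc1s1, a subunit of the BLOC-1 sorting complex (1156 ± 194 CPM), Cd63, a tetraspanin that sorts Pmel (1105 ± 161 CPM), and Myrip, which links Rab27a to a myosin on RPE melanosomes (211 ± 125 CPM; SD, n = 6 each). Otx2, a regulator of RPE and photoreceptor identity, was at 175 ± 103 CPM in RPE cells and 182 ± 30.7 CPM in interneurons. Trpm1, the channel of ON bipolar cells and melanocytes, was at 92.2 ± 50.6 CPM in RPE cells and 722 ± 220 CPM in interneurons. Gpr143, the ocular albinism receptor, was read with 5 UMIs, all in RPE cells, and Rab38, which delivers the enzymes, was at 0 there, which allows up to 19.8 CPM, and had 23 UMIs in glia (13.3 ± 6.50 CPM), 14 in interneurons and 4 in photoreceptors, so a difference between RPE and glia was not detectable. In the genotype test 2 of these 48 genes were tested in RPE cells, Bloc1s1 (log2 difference 0.04, SE 0.26) and Cd63 (0.04, SE 0.25), and 0 were called in either direction. In the other fits 4 were tested in mesenchymal cells, 3 in glia, 18 in interneurons, 32 in photoreceptors and 36 in all cells, and 0 were called higher or lower in each.

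The genes whose levels most resembled the mean of the 8 enzyme, structural and transporter genes included known RPE genes such as Rpe65, Ttr and Kcnj13. The genes compared needed at least 30 UMIs in RPE cells, and 54.0% of them were highest there. RPE genes were therefore likely to rank high, and their rank is no separate result. Over the 30 sums, which share libraries within a retina, and among 635 genes, Pearson's r of log2(CPM + 10) was highest for Sult1c1, a sulfotransferase (0.978), Dct itself (0.970), Cox8b, a cytochrome oxidase subunit (0.955), Serpine3 (0.954), Gsta2 (0.954), Slc6a13 (0.951), Rpe65 (0.950), Cltrn (0.950), Ttr (0.946) and Kcnj13 (0.946). Gpnmb ranked at 21 with 0.931. Some of these genes were also unequal among RPE cells. Sult1c1 was at 37.4, 263 and 250 CPM in wt/wt retinas 1, 2 and 3 and 760, 843 and 469 CPM in ko/ko retinas 1, 2 and 3, without overlap. It was picked by likeness to a mean that holds Dct and Pmel, over sums of both genotypes, so this is no separate result. Of the 2149 genes with at least 10 UMIs in RPE cells, 5.03% had every ko/ko value above every wt/wt value. In the 9 cells with Pmel the pooled levels were 1569 CPM for Sult1c1 and 6481 CPM for Cox8b, against 444 and 1860 CPM in the other ko/ko RPE cells and 190 and 1053 CPM in wt/wt RPE cells. Serpine3 ran the other way within the ko/ko RPE cells, with 1569 CPM in cells with Pmel and 3614 CPM in those without, and Rpe65, Cltrn, Ttr and Kcnj13 differed little between these cells (for Rpe65, 2660 and 3318 CPM). These are descriptions of few cells with no test.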

How the data were processed

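Retinas were dissociated with papain and libraries made with the 10x Genomics 3′ v2 kit. Per the labels and the study's methods, the deposited counts are raw UMI counts per gene and cell, which the authors made with Cell Ranger 3.1.0 from exonic reads on GRCm38, and the cell types are the authors' Louvain clusters in Seurat after integration over batch; filters on cells are not given in the sources used here. Cell names were all distinct (46375) and hold no barcode, so shared barcodes were not counted. No doublet caller was run. The labels name separate retinas and no animals, so p-values measure the spread between these retinas.

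UMIs were summed per retina and type and tested with edgeR 4.0.16 (R 4.3.3; TMM, filterByExpr, quasi-likelihood, genotype only, Benjamini-Hochberg, adjusted p below 0.05). limma 3.58.1 with voom, the study's method, and DESeq2 1.42.0 were alternatives, with other factors, no filter, batch, a replicate block, stricter cells (at least 500 UMIs and at most 10% mitochondrial), without the 5% of cells with most UMIs, and each retina left out. The scripts were tested on simulated data. Single values were tested by exact permutation (scipy 1.17.1). Limits for a count of 0 use 3 counts. The share of cells was thinned to 500 UMIs as the expectation of drawing without replacement. The named genes are the 10 members, the highest 5 and 5 fixed genes of the wider list, and the 10 most alike. The members and lists were chosen with earlier results of these data known.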

Additional observations from a re-analysis of the deposited data

Results flagged for a closer look

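Slc24a5 was also read in the 629 cells that the deposited annotation left without a type. No comparison by cell type used them, but the sums of all cells include them. Over those cells its level was 208 CPM, with 79 UMIs in 76 cells, above the limit that a count of 0 allows (7.91 CPM). The photoreceptor level over all retinas was 231 CPM. Groups of 3 retinas were too small for a test of single outlying retinas.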

How the results depend on the processing

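The number of members called in RPE cells was 0 and became 1 without a filter on low counts (Pmel), with batch as a covariate in edgeR or limma-voom (Dct), and with the replicate block (Dct). In the fit with the replicate block, 1 member was called and Dct was 1.04 on the log2 scale with an adjusted p of 0.0140. The numbers pair the retinas only in part: the correlation of same-numbered deviations in RPE cells was 0.092, 0.28 and 0.51 for replicates 1, 2 and 3, and wt/wt retina 1 correlated better with ko/ko retina 2 (0.16). The count of members called was 0 in the other types and in all cells under every alternative run. In mesenchymal cells no member was tested except without the filter, where 2 were, so the count was fixed in the other runs there. Requiring 2, 3 or 4 pigment genes left melanocyte-like cells at 0, but with 7 of the 8 genes at 0 in mesenchymal cells and Rgr in 115 of 116 RPE cells the rule could hardly give another count.

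The count of all genes called in RPE cells, 0 in the main test, was 1 in DESeq2, 3 without the filter, 3 and 5 with batch in edgeR and limma-voom, 4 with the block and 2 without wt/wt retina 3. In mesenchymal cells it was 0 and became 28 without the filter, 21 and 35 with batch, 26 with the block and 7 without ko/ko retina 2. It was 1 without the filter in interneurons, photoreceptors and all cells. The causes were not tested.

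Dct in RPE cells was higher in ko/ko retinas under every setting run, between 0.68 and 1.62 with each retina left out. The share of RPE cells with Dct differed by 2.67 to 20.7 percentage points with each retina left out, and by 9.71 when thinned to 250 UMIs. The mean Pmel difference ran from 260 to 445 CPM with each retina left out, added after the data were seen.

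Differences near 0 changed sign. Slc24a5 in photoreceptors was 0.038 in limma-voom, 0.023 in DESeq2 and with RLE factors, 0.018 without the filter, 0.037 with batch in edgeR, in limma-voom and with the block, 0.013 in the stricter cells, 0.0017 without the cells with most UMIs, and -0.23 to 0.13 with each retina left out. In interneurons it was -0.021 without the cells with most UMIs and -0.16 to 0.17 with each retina left out, in glia -0.069 to 0.97, and in all cells -0.20 to 0.17. Gpnmb in all cells was 0.035 in limma-voom, 0.032 there with batch, 0.011 with the block, 0.15 in the stricter cells, 0.047 without the cells with most UMIs and -0.29 to 0.27 with each retina left out. Mitf in all cells was -0.19 to 0.0088. The depth of the RPE sums, at most 35968 UMIs, limits all members but Dct.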
